A study of Mus musculus with 10 samples.

Results

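The 10 genes Sp5, Axin2, Rnf43, Znrf3, Nkd1, Notum, Lef1, Tcf7, Cd44 and Sox9 are targets and feedback regulators of the Wnt pathway, and they were followed through RNA-seq libraries of sorted mouse intestinal stem cells. Their rows were taken by gene symbol, but the list was chosen with earlier results of these data known. All 10 are among the 30295 gene rows of the deposited tables, and all 10 passed the filter on low counts that left 15839 genes for testing.

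The study sorted reserve stem cells by Hopx-CreER::LSL-tdTomato and active stem cells by Lgr5-EGFP-IRES-CreER from C57Bl/6 mice on either of 2 feeding schedules, calorie restriction (CR) or ad libitum (AL). The groups are Hopx CR (n = 2), Hopx AL (n = 2), Lgr5 CR (n = 3) and Lgr5 AL (n = 3), with 10 animals in 5 isolations and 1 library each. Isolations 1, 2 and 3 held Lgr5 mice and isolations 4 and 5 held Hopx mice, with 1 CR and 1 AL mouse in each, so that sort, reporter line and isolation cannot be told apart when the sorts are compared. The Lgr5 reporter is inserted in the Lgr5 gene itself, and tdTomato, once switched on by Cre, also stays on in the descendants of a labelled cell. The sources used here do not give the age and sex of the mice, the degree and length of restriction or the interval between Cre activation and sorting.

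Wnt proteins bind Frizzled and Lrp receptors on crypt cells and stop a cytoplasmic complex from destroying β-catenin, which then enters the nucleus and switches on genes together with the TCF and LEF proteins. Among the genes switched on are brakes on the pathway itself, which act on the ligand, the receptor, Dishevelled or the destruction complex, so that their mRNA is widely used as a readout of Wnt activity. In the small intestine Wnt signalling is strongest at the crypt base, where it maintains the Lgr5 stem cells and the maturation of Paneth cells.

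The TCF and LEF proteins bind short DNA elements, and the letters of 4 such elements, namely CTTTGAT as well as CTTTGAA, besides CTTTGTA and also CTTTGTT, were looked for on both strands of the 250 bases before each RefSeq start site (GRCm38.p6). Promoter entries were at hand for 7 of the 10 genes, in 12 windows; Notum, Znrf3 and Sox9 have none. The windows below belong to the 4 genes with the largest differences between the sorts, with matches to the elements in capitals. For Lef1 the window shown is the only 1 of its 4 with a match.
Sp5, chr2:70474673-70474922, plus strand: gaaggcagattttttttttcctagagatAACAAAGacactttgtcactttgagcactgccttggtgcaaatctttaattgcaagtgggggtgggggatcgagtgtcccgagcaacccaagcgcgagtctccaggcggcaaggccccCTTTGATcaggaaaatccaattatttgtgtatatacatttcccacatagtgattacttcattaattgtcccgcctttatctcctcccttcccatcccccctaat
Axin2, chr11:108920099-108920348, plus strand: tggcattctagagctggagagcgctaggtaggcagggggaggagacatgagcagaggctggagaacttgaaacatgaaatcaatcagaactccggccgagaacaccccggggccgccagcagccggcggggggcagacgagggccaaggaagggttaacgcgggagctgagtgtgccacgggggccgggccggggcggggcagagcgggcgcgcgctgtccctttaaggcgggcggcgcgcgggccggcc
Rnf43, chr11:87662837-87663086, plus strand, the first of its 2 start sites: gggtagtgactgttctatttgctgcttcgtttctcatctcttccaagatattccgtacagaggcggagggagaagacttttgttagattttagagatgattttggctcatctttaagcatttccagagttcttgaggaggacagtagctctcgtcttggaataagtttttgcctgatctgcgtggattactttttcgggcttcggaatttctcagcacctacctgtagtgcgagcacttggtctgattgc
Lef1, chr3:131156044-131156293, plus strand, the last of its 4 start sites: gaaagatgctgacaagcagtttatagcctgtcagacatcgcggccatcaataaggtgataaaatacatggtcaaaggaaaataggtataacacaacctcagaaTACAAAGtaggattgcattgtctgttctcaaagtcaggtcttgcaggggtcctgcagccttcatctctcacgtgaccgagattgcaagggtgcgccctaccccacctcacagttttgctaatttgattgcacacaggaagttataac
The Sp5 window holds CTTTGAT beginning 104 bases before the start and, 222 bases before it, AACAAAG, which is CTTTGTT read on the other strand. The Lef1 window holds TACAAAG, which is CTTTGTA read on the other strand, 147 bases before the start, while the other 3 Lef1 windows and those of Axin2, Rnf43, Tcf7, Nkd1 and Cd44 hold none of the 4. In all, 2 of the 12 windows hold a match. For comparison, 14.8% of 32851 RefSeq windows of this length hold at least 1 of the elements and 1.43% hold 2 or more matches. The share among the members is thus near that of all windows. A match describes the letters of the window and not a bound site.

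Depth was 87.2 and 45.6 M estimated counts in Hopx CR, 72.1 and 37.6 M in Hopx AL, 39.8, 30.2 and 78.3 M in Lgr5 CR and 27.8, 39.9 and 20.3 M in Lgr5 AL. Lgr5 mRNA averaged 114 ± 63 CPM (counts per 1e+06 counts of the library, TMM-normalized) in Hopx CR, 78.6 ± 12 in Hopx AL, 219 ± 62 in Lgr5 CR and 155 ± 91 in Lgr5 AL (SD), and the library ranges of the sorts overlapped. Hopx mRNA averaged 99.1 ± 24 CPM in Hopx CR, 108 ± 4.0 in Hopx AL, 150 ± 4.4 in Lgr5 CR and 127 ± 9.2 in Lgr5 AL, so it was not higher in the sort named for it. The proliferation gene Mki67 averaged 77.1 ± 25 CPM in Hopx CR, 28.6 ± 32 in Hopx AL, 34.3 ± 16 in Lgr5 CR and 19.0 ± 14 in Lgr5 AL. Its mean in CPM was thus not lower in the Hopx sort in either diet, with wide spreads. Paneth cell markers were abundant in every library, with a summed level of 156000 to 291500 TPM (transcripts per 1e+06 transcripts) in Hopx cells and 64510 to 171600 TPM in Lgr5 cells, whereas stromal markers summed to 0.476 to 0.908 TPM in Hopx cells and 0.751 to 1.77 TPM in Lgr5 cells. In such bulk libraries, fewer cells of a type and less RNA per cell cannot be told apart.

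Transcript levels, which are given as TPM because that unit accounts for length, spread the 10 genes over a wide range. In Hopx CR cells Sox9 averaged 37.9 ± 14 TPM and Rnf43 27.5 ± 7.2 TPM, and in Hopx AL cells Sox9 averaged 23.9 ± 4.0 TPM and Rnf43 16.8 ± 6.6 TPM (SD, n = 2 each). In Lgr5 CR cells Rnf43 averaged 73.1 ± 18 TPM and Sox9 54.1 ± 3.1 TPM, and in Lgr5 AL cells Rnf43 averaged 82.1 ± 56 TPM and Sox9 74.9 ± 47 TPM (SD, n = 3 each). These genes held the top places in all 4 groups, with Sox9 first in the Hopx groups and Rnf43 first in the Lgr5 groups, but their ranges overlapped in each group. Cd44 came next in the Hopx groups, at 15.6 ± 2.7 TPM in Hopx CR and 14.5 ± 2.0 TPM in Hopx AL, ahead of Axin2 at 14.1 ± 2.1 TPM in Hopx CR and 8.54 ± 3.3 TPM in Hopx AL. Axin2 followed in the Lgr5 groups, at 26.5 ± 1.3 TPM in Lgr5 CR and 38.7 ± 21 TPM in Lgr5 AL, ahead of Sp5 at 26.4 ± 3.0 TPM in Lgr5 CR and 33.0 ± 17 TPM in Lgr5 AL. The Axin2 and Sp5 ranges overlapped there, as did those of Sp5 and Cd44. Tcf7, Nkd1 and Znrf3 filled the sixth to eighth places in every group. Lef1 and Notum were last in every group: Lef1 averaged 0.562 ± 0.23 TPM in Hopx CR, 0.246 ± 0.017 in Hopx AL, 2.14 ± 0.40 in Lgr5 CR and 1.34 ± 0.76 in Lgr5 AL. Of the neighbours in this order, Lef1 and Notum did not overlap in either Lgr5 group and did overlap in both Hopx groups.

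Between the sorts, the question was whether the Hopx sort carries less Wnt target mRNA than the Lgr5 sort. Averaged over both diets, Sp5, Axin2 and Rnf43 were lower in Hopx than in Lgr5 cells, by 2.89-fold, 1.96-fold and 2.39-fold, and no member was called higher. Lef1 was 2.97-fold lower and just missed the threshold of 0.05 on the adjusted p. EdgeR's quasi-likelihood test with Benjamini-Hochberg adjustment over all tested genes thus called 3 of the 10 members, against 1.33% of all tested genes (211 genes, of which 97, or 0.612%, were lower in Hopx cells). Of the 10 members, 9 had a negative fold change, with a median log2 fold change of -0.64 against 0.01 for all tested genes.

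**Figure D1:**
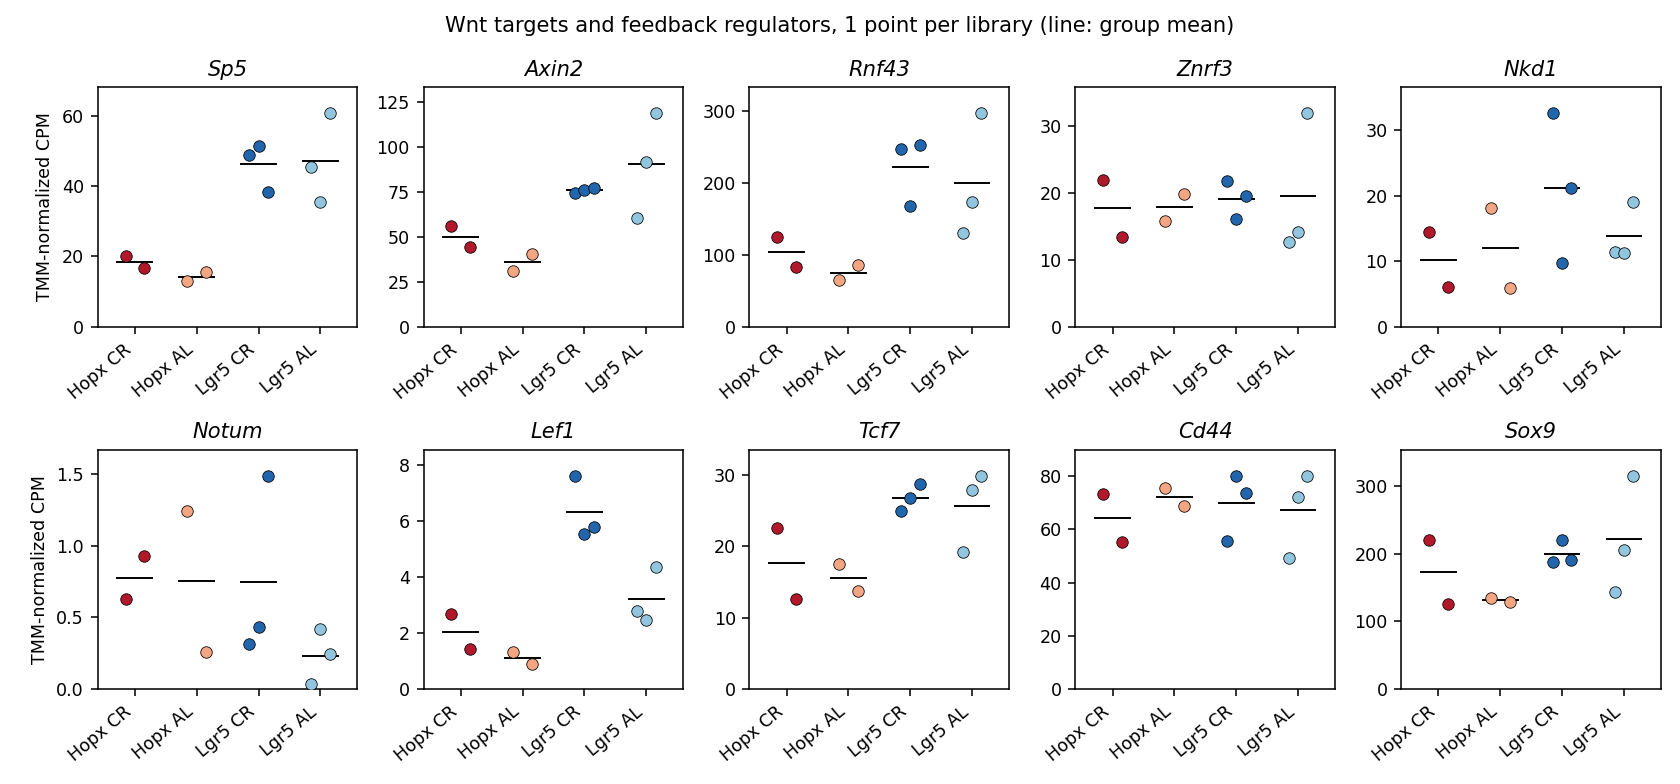
TMM-normalized CPM (vertical axis, linear, from 0) of each of the 10 genes in each library, with 1 point per library and a line at the group mean, for Hopx CR, Hopx AL, Lgr5 CR and Lgr5 AL cells. All 4 Hopx libraries lie below all 6 Lgr5 libraries for Sp5, Axin2 and Rnf43, while the sorts overlap for the other 7 genes.

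Sp5, a zinc-finger transcription factor that β-catenin switches on directly, had the clearest separation. It measured 20.2 and 16.7 CPM in Hopx CR and 12.9 and 15.6 CPM in Hopx AL, against 49.1, 51.4 and 38.5 CPM in Lgr5 CR and 45.6, 35.6 and 61.0 CPM in Lgr5 AL. Every Hopx library was lower than every Lgr5 library, with a wide gap between the sorts. The log2 fold change was -1.53 (SE 0.184, 95% interval -1.94 to -1.12, adjusted p = 0.0093 by edgeR), and by its p-value Sp5 was 14th of all tested genes. Leaving out 1 library at a time kept Sp5 past the threshold in 9 of 10 cases, the exception being the fit without Hopx AL replicate 1 (adjusted p = 0.067).

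Axin2, a scaffold of the β-catenin destruction complex that Wnt signalling induces to limit itself, measured 56.1 and 44.1 CPM in Hopx CR and 31.1 and 40.5 CPM in Hopx AL. Lgr5 cells held 74.4, 76.2 and 77.1 CPM under CR and 60.4, 91.8 and 119 CPM under AL. The sorts did not overlap, but the gap between Hopx CR replicate 1 and Lgr5 AL replicate 1 was small. The log2 fold change was -0.97 (SE 0.190, 95% interval -1.39 to -0.54, edgeR adjusted p = 0.0456). In the fits that left out 1 library Axin2 passed in 1 of 10, without Lgr5 AL replicate 1, and its adjusted p ran from 0.0157 to 0.193.

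Rnf43 and Znrf3 are related membrane ubiquitin ligases that remove Frizzled receptors from the cell surface, and R-spondin bound to an Lgr receptor takes them out of action. Rnf43 measured 125 and 83.1 CPM in Hopx CR and 65.0 and 85.5 CPM in Hopx AL, against 248, 168.5 and 253 CPM in Lgr5 CR and 130.4, 174 and 298 CPM in Lgr5 AL. Its sorts did not overlap, although Hopx CR replicate 1 came close to Lgr5 AL replicate 1, and the log2 fold change was -1.26 (SE 0.254, 95% interval -1.82 to -0.69, edgeR adjusted p = 0.0485). Rnf43 also passed in only 1 of the 10 fits without 1 library, again the one without Lgr5 AL replicate 1, with adjusted p-values of 0.0263 to 0.201. Znrf3 measured 22.0 and 13.5 CPM in Hopx CR and 15.9 and 19.9 CPM in Hopx AL, against 21.8, 16.2 and 19.5 CPM in Lgr5 CR and 12.7, 14.1 and 32.0 CPM in Lgr5 AL. The Hopx values of Znrf3 lay inside the range of the Lgr5 values. Its log2 fold change of -0.12 (SE 0.282) had a 95% interval of -0.75 to 0.51, which leaves room for a moderate difference either way.

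Nkd1, which binds Dishevelled and dampens the signal, measured 14.4 and 6.06 CPM in Hopx CR and 18.1 and 5.97 CPM in Hopx AL, against 32.65, 9.66 and 21.1 CPM in Lgr5 CR and 11.4, 11.2 and 19.0 CPM in Lgr5 AL. Its libraries differed about as much within a group as between the sorts (log2 fold change -0.62, SE 0.428, edgeR adjusted p = 0.465). Notum, a secreted enzyme that strips the lipid from Wnt proteins, was the member with the lowest counts, at 1.1 to 114.7 estimated counts a library. It stood at 0.629 and 0.925 CPM in Hopx CR and 1.24 and 0.261 CPM in Hopx AL, against 0.311, 0.432 and 1.49 CPM in Lgr5 CR and 0.0357, 0.417 and 0.244 CPM in Lgr5 AL. The ranges overlapped, and the log2 fold change of 0.85 had a standard error of 0.720 and a 95% interval of -0.75 to 2.46. How much of that error comes from counting and how much from the animals was not tested.

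Lef1 and Tcf7 are HMG-box factors that carry β-catenin to DNA, and both genes are themselves Wnt targets. Lef1 measured 2.67 and 1.43 CPM in Hopx CR and 1.32 and 0.886 CPM in Hopx AL, against 7.625, 5.54 and 5.80 CPM in Lgr5 CR and 2.78, 2.48 and 4.35 CPM in Lgr5 AL. Within each diet the sorts did not overlap, whereas Hopx CR replicate 1 was above Lgr5 AL replicate 2. How many tested genes separate the sorts within each diet was not counted. The log2 fold change of Lef1 was -1.57 (SE 0.325, 95% interval -2.30 to -0.85), the lowest estimate of the 10, at an edgeR adjusted p of 0.0507. Lef1 passed with the other scaling tried (0.0482), without the count filter (0.0379) and with DESeq2 (3.8e-05), and in none of the 10 fits without 1 library (0.0518 to 0.173). Tcf7 measured 22.5 and 12.7 CPM in Hopx CR and 17.5 and 13.7 CPM in Hopx AL, against 25.0, 26.7 and 28.7 CPM in Lgr5 CR and 19.3, 27.9 and 29.9 CPM in Lgr5 AL. Only Hopx CR replicate 1 and Lgr5 AL replicate 1 crossed, and the log2 fold change was -0.66 (SE 0.206, edgeR adjusted p = 0.126; DESeq2 adjusted p = 0.0259).

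Both factors are also T cell genes, and T cell marker genes were present. The 12 T cell markers summed to 16.9 to 72.4 TPM in Hopx CR, 78.4 to 152 TPM in Hopx AL, 61.8 to 164 TPM in Lgr5 CR and 32.9 to 273 TPM in Lgr5 AL. Between the sorts all 12 had a negative fold change, with a median of -0.55 on the log2 scale and none past the edgeR threshold or an unadjusted p of 0.05. The share of Lef1 and Tcf7 mRNA that T cells contributed was not tested.

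Cd44, a hyaluronan receptor of crypt cells, measured 73.1 and 55.1 CPM in Hopx CR and 75.7 and 68.9 CPM in Hopx AL, against 55.6, 79.9 and 73.7 CPM in Lgr5 CR and 49.3, 72.0 and 80.2 CPM in Lgr5 AL. Hopx values lay within the Lgr5 range, and the log2 fold change was -0.01 (SE 0.172), with a 95% interval of -0.39 to 0.38. Sox9, an HMG-box factor of the crypt that Paneth cells need, measured 219.5 and 126 CPM in Hopx CR and 135 and 128 CPM in Hopx AL, against 188, 219.5 and 190.3 CPM in Lgr5 CR and 144, 205 and 315 CPM in Lgr5 AL. In 3 of the 4 Hopx libraries Sox9 was below every Lgr5 library and in Hopx CR replicate 1 it was not, giving a log2 fold change of -0.48 (SE 0.229, edgeR adjusted p = 0.284).

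Across the 10 genes, Sp5, Axin2 and Rnf43 had all 4 Hopx libraries below all 6 Lgr5 libraries, as did 1.93% of tested genes. No member had all Hopx libraries above all Lgr5 libraries, as 2.87% of tested genes did. At an unadjusted p under 0.05 the members that passed were 5 of 10, against 19.5% of tested genes. The Paneth cell markers moved with this contrast: all 9 had a positive fold change in Hopx cells, with a median of 0.82 on the log2 scale, and 5 passed an unadjusted p of 0.05 although none passed the adjusted threshold. Of the enteroendocrine markers 7 of 7 were higher in the estimate and 2 were called, and of the goblet cell markers 5 of 6 were higher and 2 were called, with summed goblet levels of 7262 to 9950 TPM in Hopx cells and 3242 to 5937 TPM in Lgr5 cells. All 8 tuft cell markers were higher in the estimate too, with a median of 0.68, 3 at an unadjusted p under 0.05 and none called, and summed tuft levels of 56.7 to 141 TPM in Hopx cells and 34.6 to 325 TPM in Lgr5 cells; under CR alone their median was 1.75 and all 8 were at an unadjusted p under 0.05. The part of these cells in the lower Wnt target levels was not tested.

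**Figure D2:**
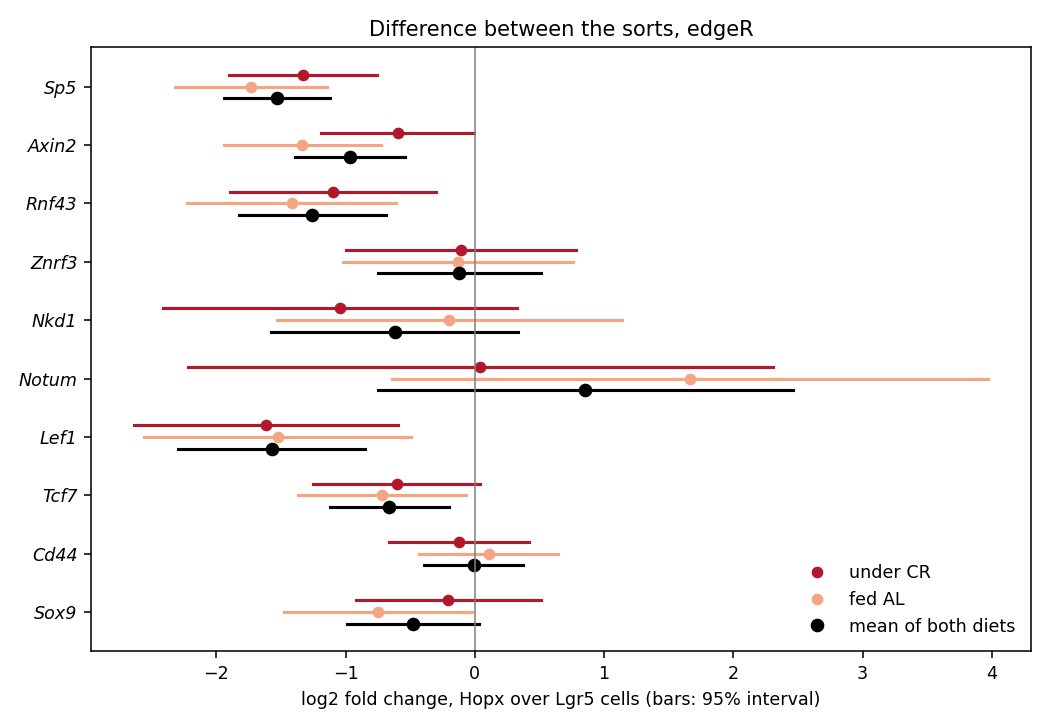
Log2 fold change of Hopx over Lgr5 cells (horizontal axis) for each gene under CR, under AL and as the mean of both diets, with bars for the 95% interval of the edgeR fit. The intervals of Sp5, Axin2, Rnf43 and Lef1 stay below 0 in all 3 comparisons, that of Axin2 under CR only just (-1.19 to -0.01), and those of Cd44, Znrf3, Nkd1 and Notum cross 0 in each.

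How many members were called lower differed between the methods, which differ in test as well as in scale. On the log2(TPM + 1) scale, limma called 6 of 10 members lower in Hopx cells, but it called 3350 tested genes in all, 158 of them higher, and the median of all genes was itself -0.35. Cd44, at -0.51, and Znrf3, at -0.48, lay near that median on this scale, whereas Sp5, Axin2, Rnf43 and Lef1 were further down. Ratios of 2 members within a library do not depend on how libraries are scaled to each other, and these pairs were picked after the values had been seen, apart from the related genes Rnf43 with Znrf3 and Lef1 with Tcf7. The ratio of Sp5 to Cd44 in TPM was 0.325 to 0.575 in Hopx cells and 0.939 to 1.76 in Lgr5 cells, and that of Axin2 to Cd44 was 0.477 to 0.928 in Hopx cells and 1.11 to 1.72 in Lgr5 cells. Rnf43 exceeded Znrf3 by 7.04 to 10.6 times in Hopx cells and by 16.0 to 22.3 times in Lgr5 cells. None of these 3 ratios overlapped between the sorts, nor did Sp5 over Sox9, at 0.193 to 0.279 in Hopx cells and 0.365 to 0.666 in Lgr5 cells. How often ratios of other gene pairs do so was not computed. The 3 ratios reuse values in which Sp5, Axin2 and Rnf43 had separated the sorts while Cd44 and Znrf3 had not. They are therefore no separate support for the sort difference, and for the pairs with Cd44 the choice of members sets the direction. The ratio of Lef1 to Tcf7 did overlap, at 0.0423 to 0.0767 in Hopx cells and 0.0573 to 0.197 in Lgr5 cells, with Lgr5 AL replicate 2 the lowest of the Lgr5 libraries.

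**Figure D3:**
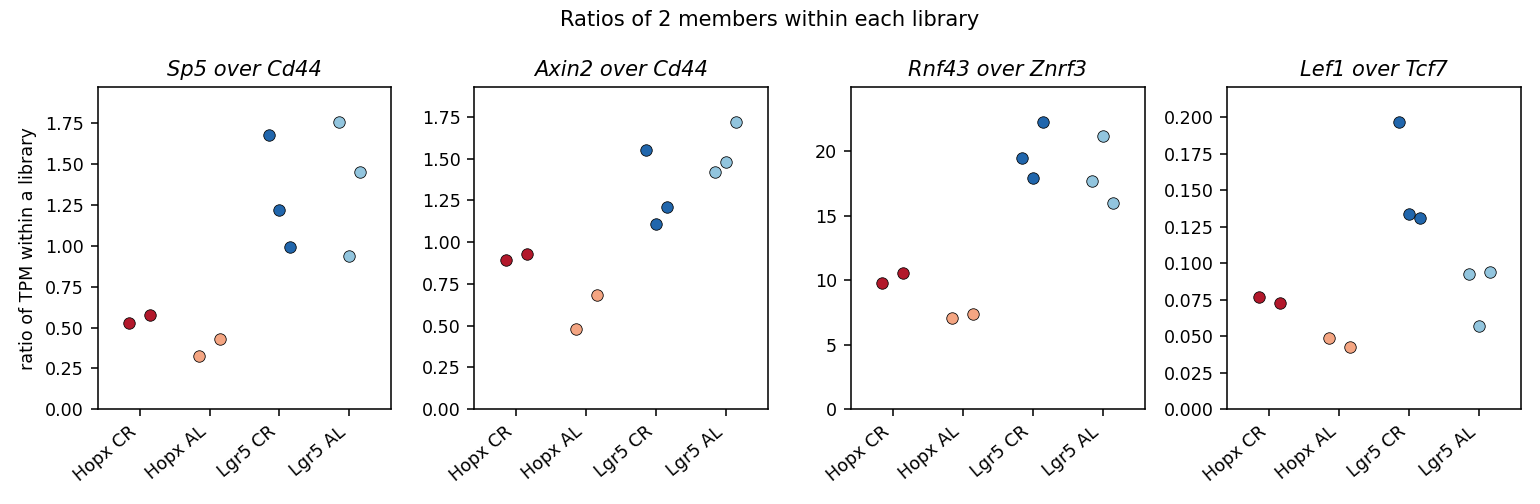
Ratio of the TPM of 2 members within each library (vertical axes, linear, from 0), with 1 point per library, for Sp5 over Cd44, Axin2 over Cd44, Rnf43 over Znrf3 and Lef1 over Tcf7. In the first 3 panels the highest Hopx point is below the lowest Lgr5 point, and in the fourth they overlap.

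Within a single diet edgeR called no member, and the estimates of the 4 lowest members were negative in either diet. Under CR the log2 fold change of Hopx over Lgr5 cells was -1.33 for Sp5 (SE 0.258), -1.62 for Lef1 (SE 0.458), -1.10 for Rnf43 (SE 0.357) and -0.60 for Axin2 (SE 0.265). In fed mice it was -1.73 for Sp5 (SE 0.263), -1.53 for Lef1 (SE 0.462), -1.42 for Rnf43 (SE 0.362) and -1.34 for Axin2 (SE 0.273). Sp5, Lef1 and Rnf43 thus had estimates of like size in either diet, and Axin2 a smaller one under CR, a difference that did not pass its own test (interaction unadjusted p = 0.0735). EdgeR called 0 members under CR, against 0.0189% of tested genes, with 4 members at an unadjusted p under 0.05, as were 6.3% of tested genes. DESeq2 called 2 members among 160 genes under CR, and limma on log2(TPM + 1) called 0 among 5. In fed mice edgeR called 0 members, against 0.0189% of tested genes, with 6 at an unadjusted p under 0.05, as were 17.7% of tested genes, and Sp5 came nearest (edgeR adjusted p = 0.0581). DESeq2 called 4 members among 1157 genes in fed mice, and limma on log2(TPM + 1) called 6 among 3359.

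The second question was whether calorie restriction shifts these genes in either population. In the Hopx sort edgeR called 0 members between CR and AL, against 0.0126% of tested genes, and 0 members at an unadjusted p under 0.05, by DESeq2 or by limma. In the Lgr5 sort it called 0 members, against 0.0189% of tested genes, with 1 member, Lef1, at an unadjusted p under 0.05 and 0 by DESeq2 or limma. For the mean of both sorts it called 0 members, against 0.00631% of tested genes, again with Lef1 alone at an unadjusted p under 0.05 and 0 by DESeq2 or limma. So few genes passed edgeR for diet in the whole table that its counts say little about the members. DESeq2 called 140 tested genes in the Hopx sort, 365 in the Lgr5 sort and 641 for the mean of both, and limma on log2(TPM + 1) called 4, 19 and 50.

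Lef1 had the most regular diet difference of the 10. Within isolations, CR minus AL on the log2 CPM scale was 0.99 and 0.67 in Hopx cells and 1.44, 1.15 and 0.41 in Lgr5 cells, so that Lef1 was higher in the CR mouse of all 5 pairs, as were 8.71% of tested genes, while no member was lower in all 5, as 7.68% of tested genes were. It was the only member with 1 direction in all 5 pairs. A count of 1 in 10 is not above the share of tested genes with 1 direction, higher or lower, in all 5 pairs. The shared direction therefore does not set Lef1 apart from tested genes at large. In the edgeR fit the log2 fold change was 0.89 in Hopx cells (SE 0.484, adjusted p = 0.632), 0.98 in Lgr5 cells (SE 0.392, adjusted p = 0.460) and 0.94 for the mean of both (SE 0.312, 95% interval 0.24 to 1.63, unadjusted p = 0.0132, adjusted p = 0.239). DESeq2 gave an adjusted p of 0.0631 for that mean. Cell type markers also moved with diet. The T cell markers summed to 16.9 TPM in the CR mouse and 152 TPM in the AL mouse of isolation 4, and to 72.4 TPM in the CR mouse and 78.4 TPM in the AL mouse of isolation 5. In Lgr5 cells the CR mouse had 164 TPM and the AL mouse 273 TPM in isolation 1. In isolation 2 CR was at 61.8 and AL at 32.9 TPM, and in isolation 3 CR was at 116 and AL at 67.2 TPM. This sum was lower with CR in 3 pairs and higher in 2. Gzma, 1 of the 12, averaged 27.0 TPM in Hopx CR, 72.0 in Hopx AL, 64.8 in Lgr5 CR and 62.7 in Lgr5 AL. By fold change over both sorts, all 12 markers were lower with CR, with a median of -0.96 on the log2 scale. Only 1 was at an unadjusted p under 0.05. In Hopx cells all 12 were lower (median -1.71, 2 at an unadjusted p under 0.05), and in Lgr5 cells 9 of 12 (median -0.32). For the mean of both sorts, all 9 enterocyte markers had a positive fold change with CR, with a median of 1.05 on the log2 scale and 5 at an unadjusted p under 0.05, and all 8 tuft cell markers had a negative one, with a median of -0.91 and 6 at an unadjusted p under 0.05. Enterocyte markers summed to 13340 to 16980 TPM in Hopx CR, 6689 to 7300 TPM in Hopx AL, 16320 to 23480 TPM in Lgr5 CR and 6819 to 25200 TPM in Lgr5 AL. Tuft cell markers summed to 83.1 to 141 TPM in Hopx CR, 56.7 to 113 TPM in Hopx AL, 34.6 to 48.6 TPM in Lgr5 CR and 89.5 to 325 TPM in Lgr5 AL. In Lgr5 cells the median of the tuft markers was -1.80, with 7 of 8 at an unadjusted p under 0.05, and in Hopx cells it was -0.08. No marker of these 3 lists passed the edgeR threshold for diet, and the part of these cells in the Lef1 values was not tested. Lef1 was counted from only 34.5 to 448.4 estimated counts a library.

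**Figure D4:**
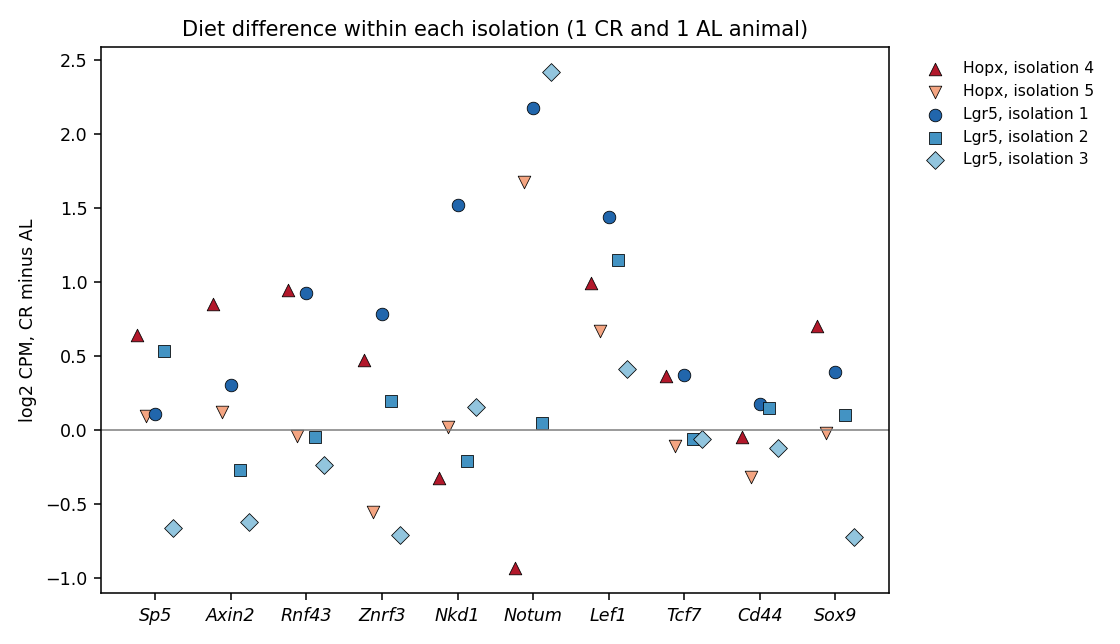
CR minus AL difference in log2 CPM (vertical axis) within each of the 5 isolations, 1 CR and 1 AL mouse each, for the 10 genes; triangles are the 2 Hopx isolations and the other symbols the 3 Lgr5 isolations. Lef1 lies above 0 in all 5 isolations, between 0.41 and 1.44, and each other gene has points on both sides of 0.

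Among the feedback inhibitors, Axin2 differed by 0.85 and 0.12 in the Hopx pairs and by 0.30, -0.27 and -0.63 in the Lgr5 pairs. Its diet estimate was 0.49 in Hopx cells (SE 0.286) and -0.25 in Lgr5 cells (SE 0.233), and the difference between these effects was 0.74 (SE 0.369, 95% interval -0.08 to 1.56, unadjusted p = 0.0735), which did not pass. For that interaction edgeR called 0 members, against 0.00631% of tested genes, and 0 members at an unadjusted p under 0.05, by DESeq2 or by limma. Rnf43 differed by 0.94 and -0.04 in the Hopx pairs and by 0.93, -0.05 and -0.24 in the Lgr5 pairs, a large positive value in 1 pair of each sort and little or a small negative value in the others. Notum differed by -0.94 and 1.67 in the Hopx pairs and by 2.18, 0.05 and 2.42 in the Lgr5 pairs, which is the widest spread of the members, in the one with the lowest counts.

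Sp5, the member furthest from overlap between the sorts, differed by 0.64 and 0.10 with diet in the Hopx pairs and by 0.11, 0.53 and -0.66 in the Lgr5 pairs. Its diet estimates were 0.37 in Hopx cells (SE 0.271) and -0.03 in Lgr5 cells (SE 0.220), with a 95% interval of -0.52 to 0.46 in Lgr5 cells. Znrf3, Nkd1, Tcf7 and Sox9 each had pairs of both signs, and Cd44 kept within -0.32 to 0.17 over the 5 pairs. The direction differed between isolations: 10 of 10 members were higher with CR in isolation 1 and 7 of 10 in isolation 4, but 6 in isolation 2, 5 in isolation 5 and 3 in isolation 3. The share of all tested genes higher with CR was 49.1% in isolations 4 and 5, 49.5% in isolations 1 and 2 and 53.3% in isolation 3. Lgr5 mRNA also differed within pairs, at 237.7 CPM with CR and 75.0 with AL in isolation 1 and 158.4 and 70.0 in isolation 4. With CR and AL it was 149.5 and 136.5 CPM in isolation 2, 69.3 and 87.2 in isolation 5 and 269.9 and 254.6 in isolation 3. The part of stem cell content in the member counts was not tested. In Hopx cells the median diet estimate of the members was 0.27 against -0.02 for all tested genes, and in Lgr5 cells it was 0.06 against 0.02. Of the Paneth cell markers 8 of 9 were lower with CR in Hopx cells (median -0.65) and 3 of 9 in Lgr5 cells (median 0.08). Of the enteroendocrine markers 7 of 7 were lower with CR in Hopx cells (median -0.90) and 3 of 7 in Lgr5 cells (median 0.53). EdgeR called none of them, and the part of these cells in the member estimates was not tested.

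The rest of the pathway gives the setting of the sort difference. Of 20 other Wnt targets and crypt-base genes, 19 were tested and 16 had a negative fold change in Hopx against Lgr5 cells, with a median of -0.83 on the log2 scale. EdgeR called 2 lower and 0 higher, against 0.612% of all tested genes called lower. At an unadjusted p under 0.05, 14 were lower, as were 9.03% of all tested genes. Those called were Tnfrsf19, a TNF-family receptor of crypt-base cells, at -1.81 (SE 0.341, edgeR adjusted p = 0.0412), and Ascl2, the transcription factor that maintains Lgr5 stem cells, at -1.32 (SE 0.266, adjusted p = 0.0485). Tnfrsf19 measured 39.6 and 16.2 CPM in Hopx CR and 16.3 and 23.9 CPM in Hopx AL, against 105.7, 85.7 and 94.5 CPM in Lgr5 CR and 49.0, 47.9 and 120.4 CPM in Lgr5 AL, without overlap. Ascl2 measured 88.3 and 40.1 CPM in Hopx CR and 29.8 and 45.4 CPM in Hopx AL, against 76.5, 97.8 and 102 CPM in Lgr5 CR and 142, 123 and 224 CPM in Lgr5 AL, with Hopx CR replicate 1 inside the Lgr5 range. Olfm4, a crypt-base stem cell marker, was at -1.09 (SE 0.244, edgeR adjusted p = 0.0653), and passed in 5 of 15 alternatives, DESeq2 among them (adjusted p = 0.000118), with 1 of the 10 fits without 1 library. In the 10 fits without 1 library Tnfrsf19 passed in 2 (adjusted p 0.0314 to 0.193) and Ascl2 in 1 (0.046 to 0.201).

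Upstream of the targets, edgeR called 1 gene between the sorts. Of 25 Wnt ligands, R-spondins and secretion factors, 12 were tested and none was called, 7 with a positive and 5 with a negative fold change. Wnt3, the ligand that Paneth cells make, was at 0.46 (SE 0.314), and at -0.09 on the log2(TPM + 1) scale. Among 18 tested receptors and 21 tested members of the Dishevelled and destruction complex list none was called, with medians of -0.11 and -0.10 on the log2 scale. The receptors with the smallest p were Fzd7, at -0.80 (SE 0.209), and Fzd2, at -0.95 (SE 0.270), neither past the adjusted threshold in edgeR and both past it in DESeq2 (adjusted p = 0.00712 and 0.00848). Of 13 tested nuclear factors 11 had a negative fold change and 1 was called, the Groucho corepressor Tle3, at -0.98 (SE 0.164, edgeR adjusted p = 0.0309), while Ctnnb1, which encodes β-catenin, was at -0.42 (SE 0.119, edgeR adjusted p = 0.102). Ctnnb1 passed in DESeq2 (adjusted p = 0.000797) and in limma at either pseudocount, and in none of the 10 fits without 1 library. Tle3 measured 45.2 and 34.0 CPM in Hopx CR and 24.9 and 20.5 CPM in Hopx AL, against 53.4, 58.7 and 73.9 CPM in Lgr5 CR and 67.4, 46.5 and 55.0 CPM in Lgr5 AL, without overlap, and passed in 3 of the 10 fits without 1 library (adjusted p 0.0314 to 0.113). Of 13 tested inhibitors outside the 10 genes none was called, and Wif1, a secreted Wnt-binding inhibitor, had the smallest p, at 1.82 (SE 0.450, edgeR adjusted p = 0.0809, and 0.00441 by DESeq2). Wif1 was low in every group, at 3.38 ± 1.5 CPM in Hopx CR and 3.12 ± 0.06 in Hopx AL. It averaged 2.15 ± 1.2 CPM in Lgr5 CR and only 0.390 ± 0.16 in Lgr5 AL.

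**Figure D5:**
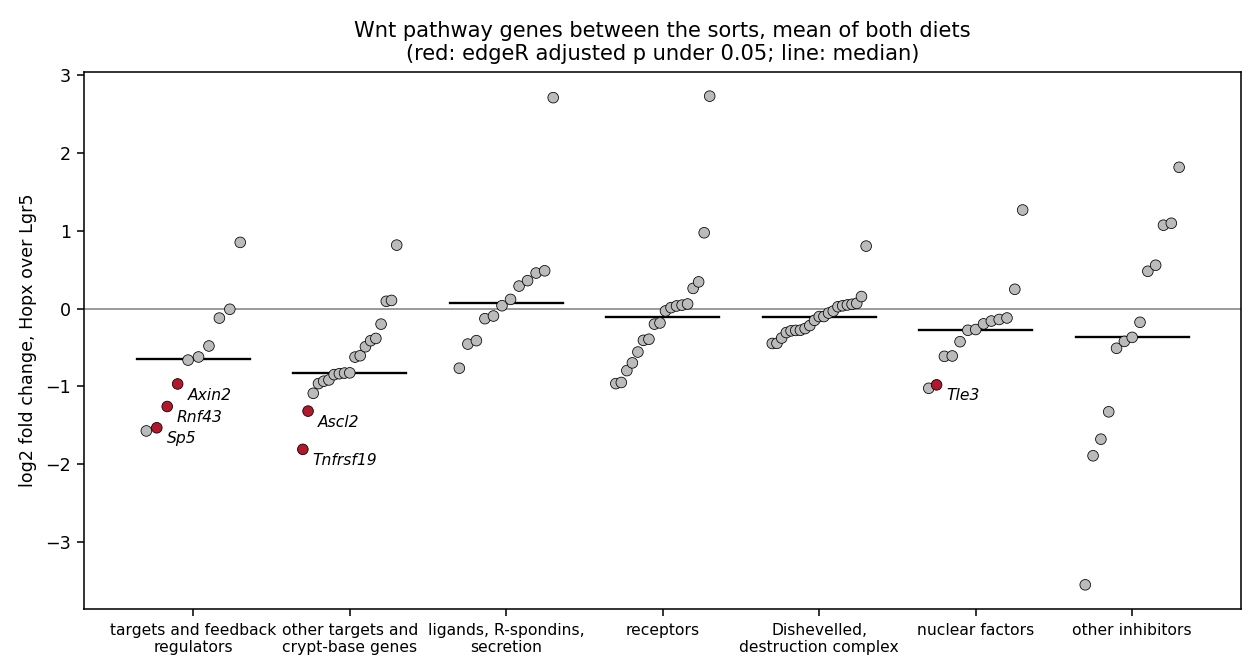
Log2 fold change of Hopx over Lgr5 cells, mean of both diets (vertical axis), for every tested gene of 7 lists, with a line at each list's median and red points for an edgeR adjusted p under 0.05. The medians of the 10 members, at -0.64, and of the other targets, at -0.83, are the lowest, and the 6 red points, which are all below 0, are named.

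With diet, none of the tested genes of these other lists was called for the mean of both sorts. The smallest p-values belonged to Kremen1, a Dickkopf receptor that removes Lrp6, at 0.84 (SE 0.185, edgeR adjusted p = 0.121), to Tnks, a tankyrase that marks Axin proteins for destruction, at 0.73 (SE 0.174, adjusted p = 0.132), and to Fzd5, a Frizzled receptor of crypt cells, at 0.50 (SE 0.155, adjusted p = 0.215). All 3 estimates were positive and none passed in edgeR, while Kremen1 and Tnks passed in DESeq2 (adjusted p = 0.00408 and 0.0115). Of the receptors 15 of 18 had a positive estimate with CR, and of the destruction complex list 17 of 21, with medians of 0.26 and 0.22 against 0.00 for all tested genes.

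The genes whose levels ran most like a member's over the 10 libraries were ranked by the root-mean-square difference of centred log2 CPM. For Sp5 these were Jun (0.244), Fam115a (0.267) and Dusp4 (0.272), against a standard deviation of Sp5 itself of 0.824. Smo (0.17), Notch1 (0.178) and Zfp41 (0.181) were nearest to Axin2, whose own standard deviation was 0.586. Rnf43 was followed most nearly by BC021891 (0.183), Zfp12 (0.236) and Olfm4 (0.239), against 0.75 for Rnf43 itself. Lef1 had no gene as near, with Extl1 (0.352), Lamb3 (0.385) and Tns4 (0.4) against its own 1.01. No member was among the 3 nearest genes of another member.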

How the data were processed

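RNA was read in 10 libraries, made with the SMART-Seq v4 and Nextera XT kits per the labels' protocols. These kits mark neither strand nor molecule, so amplified copies count as reads, and reads of Axin2, Lef1 and Notum cannot be told from those of genes that GENCODE M21 places on the opposite strand over 209, 1208 and up to 708 of their exon bases. The authors deposited estimated counts and TPM per gene symbol. Kallisto and edgeR, without versions, and the build GRCh38 stand in the submitters' processing notes; that build is human, while the symbols are those of the mouse, and the annotation is not given in the sources used here. In all 10005 genes with at least 100 estimated counts in every library, the ratio of deposited counts to TPM followed 1 fixed length per gene, within a tolerance of 0.01 log2 units.

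Counts were rounded, filtered with filterByExpr (minimum count 10), scaled by TMM and fitted with edgeR 4.0.16 (quasi-likelihood, R 4.3.3) as 4 group means over all 10 libraries. P-values are two-sided and adjusted by Benjamini-Hochberg over the 15839 genes, with a threshold of 0.05. The biological coefficient of variation was 0.389. CPM is TMM-normalized. The standard error is the log2 fold change over the root of the F statistic. Alternatives were DESeq2 1.42.0, RLE scaling, no filter, limma 3.58.1 on log2(TPM + 1) and log2(TPM + 0.1), fits on only the groups compared, isolation as a block and leaving out each library. The fit was also run on simulated counts drawn independently from its own dispersions, which cannot show effects of isolation or cell mixture.

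The labels give each CR and AL pair 1 isolation number, which makes isolation the pairing. Deviations from group means correlated at 0.0195 to 0.165 within isolations. With 2 libraries in each Hopx group the deviations mirror each other, so isolations 4 and 5 must give the same value (0.0252). These correlations are therefore not 5 separate checks of the pairing. P-values set a difference against the spread between these animals, and 2 or 3 animals a group limit precision. Between the sorts the fit takes the libraries as independent, although each isolation gave 1 CR and 1 AL library. The members and lists were chosen with earlier results of these data known. Named genes are the 10 members, up to 3 genes of a list with the smallest p in a contrast, the 3 genes most like a member (at least 5 CPM, no predicted gene, clone or pseudogene) and the sort checks. Promoter sequences are RefSeq's.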

Additional observations from a re-analysis of the deposited data

How the results depend on the processing

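In the mean of both diets, DESeq2 called 5 members lower in Hopx than in Lgr5 cells and limma called 6 with either pseudocount, against 3 in the edgeR fit; leaving out 1 library gave 0 to 3, with 0 without Hopx AL replicate 1, 3 without Lgr5 AL replicate 1 and 1, Sp5, in each other case. In fed mice the count was 4 with DESeq2, 2 without the filter and 6 with limma at either pseudocount, against 0. It was at most 2 without 1 library of the Lgr5 sort, the 2 without Lgr5 AL replicate 1. Under CR the count was 2 with DESeq2, against 0. Calls over all tested genes rose as well with DESeq2 in either diet and with limma on log2(TPM + 1) in fed mice, as given above. For fed mice they are not given here without the filter or without 1 library, so those member counts have no share beside them. All tested genes called in the mean of both diets numbered 1400 with DESeq2, 465 without the filter, 3350 and 3658 with limma at the larger and the smaller pseudocount and 22 to 293 without 1 library, against 211. For diet in the mean of both sorts DESeq2 called 641 genes against 1 and leaving out libraries gave 1 to 348, the 348 without Lgr5 AL replicate 1. The cause of these differences was not tested.

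The isolation block changed no call of a member in the diet comparisons, with 0 members called in each, and gave Lef1 a log2 fold change of 0.93 for the mean of both sorts (adjusted p = 0.222). No block could be used between the sorts, which share no isolation.

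Some estimates near 0 changed sign. The Lef1 interaction was 0.14 with limma on log2(TPM + 0.1) and -0.62 to 0.28 without 1 library, against -0.09. Between the sorts, Cd44 was 0.012 without the filter and -0.114 to 0.0905 without 1 library, Znrf3 was -0.32 to 0.14, and Sox9 under CR was -0.67 to 0.14. Wnt3 was -0.0922 and -0.101 with limma at the larger and the smaller pseudocount. Diet estimates in Lgr5 cells ran from -0.20 to 0.19 for Sp5 and from -0.0817 to 0.55 for Rnf43 without 1 library.

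Notum and Lef1 have the lowest counts, and 2 or 3 animals a group limit every comparison. Where a fit without 1 library leaves a single animal in a group, that animal is assumed to vary like the others.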
